A study of Mus musculus with 5 samples.

Results

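Amino acid transporter genes were described across mouse embryonic stem (ES) cells and the sphere-forming cells derived from them. The genes were chosen by name alone, as every probe whose gene symbol on the array platform starts with Slc1a, Slc3a, Slc6a, Slc7a, Slc36a, Slc38a or Slc43a. This gave 51 genes of the 16032 named on the array, each with 1 probe: 16 of Slc6a, 14 of Slc7a, 7 of Slc1a, 5 of Slc38a, 4 of Slc36a, 3 of Slc43a and 2 of Slc3a. The name does not always give the cargo. Several Slc6a members carry neurotransmitters, taurine or creatine, Slc43a3 carries nucleobases, and Slc7a6os is the neighbour of Slc7a6 and no transporter.

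Expression was measured on 5 one-colour arrays, 1 per culture. All cells were of strain 129, derived from the ES cell line E14tg2a, and carried a myristoylated Akt kinase joined to a modified estrogen receptor (myr-Akt-Mer), which 4-hydroxytamoxifen (4OHT) switches on. The controls carry the fusion too, and the labels give no promoter for it. The ES-type arrays were of line 21 ES cells without 4OHT, of the same line with 1 µM 4OHT, both grown without feeders, and of line 21 reverted cells, which are ES-like cells obtained from spheres on embryonic fibroblast feeders after transient 4OHT. The sphere arrays came from Akt-spheres that formed and were passaged on an OP9 stromal layer in 1 µM 4OHT, once from line 21 and once from line 42. OP9 cells had been taken away by letting them attach to a dish. No array of ES cells of line 42 was used here, and the sphere arrays differ by line as well as by culture. Nothing says which arrays come from repeated cultures, so p-values measure the spread between these arrays alone. Where the ES-type arrays form 1 group, this spread holds the differences between untreated, 4OHT-treated and reverted cells. Between the sphere arrays it holds those between lines 21 and 42. Part of the spread may also be technical.

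Amino acids cross the plasma membrane through carriers that differ in cargo and in driving force. Slc7 light chains bind a heavy chain, Slc3a2 or Slc3a1, and exchange neutral, cationic or acidic amino acids, while the cationic carriers of Slc7 work alone. Slc1 and Slc38 carriers pull glutamate, glutamine, alanine and serine in with sodium, some Slc36 carriers use protons, and some Slc43 carriers let large neutral amino acids pass down their gradient. Shortage of amino acids activates the transcription factor Atf4, which is known to raise several of these genes together with enzymes of serine and asparagine synthesis. Pluripotent cells are known for a high demand for amino acids.

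The deposited values are probe intensities on a linear scale whose median is close to 50 on every array. The 40th percentile of an array lay at 28.6 to 29.3, and a gene entered a comparison where no array involved had an empty cell and at least 1 reached that percentile. Of the 51 genes, 27 reached it on at least 1 array and 15 on all 5. The other 24 lay under it everywhere, between 3.28 and 24.6, and 12 of these had at least 1 empty cell. Differences below are of log2(value + 1) after centring each array on its median.

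ES cell markers summed to 88398 to 102030 on the ES-type arrays and to 11167 and 15476 on the sphere arrays of lines 21 and 42, over 9 of 9 genes on the array. Dppa5a alone gave 49687 to 58362 of the ES-type sums. In spheres limma called 6 of the 9 lower and 0 higher, beside 1.47% and 0.963% of all genes. Nanog read 5523 and 4003 in spheres against 3839 to 5480. Primordial germ cell markers summed to 1661 to 3872 on the ES-type arrays and to 5641 and 13029 in spheres, also over 9. Of the 13029, Dppa3 gave 9198, with 223 in line 21 spheres and 171 to 1626 on the ES-type arrays. Of these 9, limma called 0. For OP9 stroma the 11 markers summed to 1095 to 1842 on the ES-type arrays and to 990.6 and 437 in spheres. Of the 10 OP9 markers compared, limma called 1 higher in spheres, the fat-cell gene Fabp4 (183 and 143 against 4.63 to 6.07, adjusted p = 0.00433), and 2 lower, Acta2 and Thy1 (80.7 and 62.4 against 415 to 606, and 24.8 and 16.1 against 230.1 to 464, both adjusted p = 0.0146). Mgp, a matrix gene, reached 328 in line 21 spheres with 4.43 to 10.1 elsewhere. The 10 markers of embryonic fibroblasts summed to 935 in reverted cells, 527 and 669.9 in ES cells and 542 and 155 in spheres. No marker of OP9 cells or fibroblasts lacked a value, and 8 of the 11 and 7 of the 10 reached the 40th percentile in reverted cells, against 5 to 6 and 1 to 3 on the other arrays. The part of other cells in the results below was not tested.

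**Figure D1:**
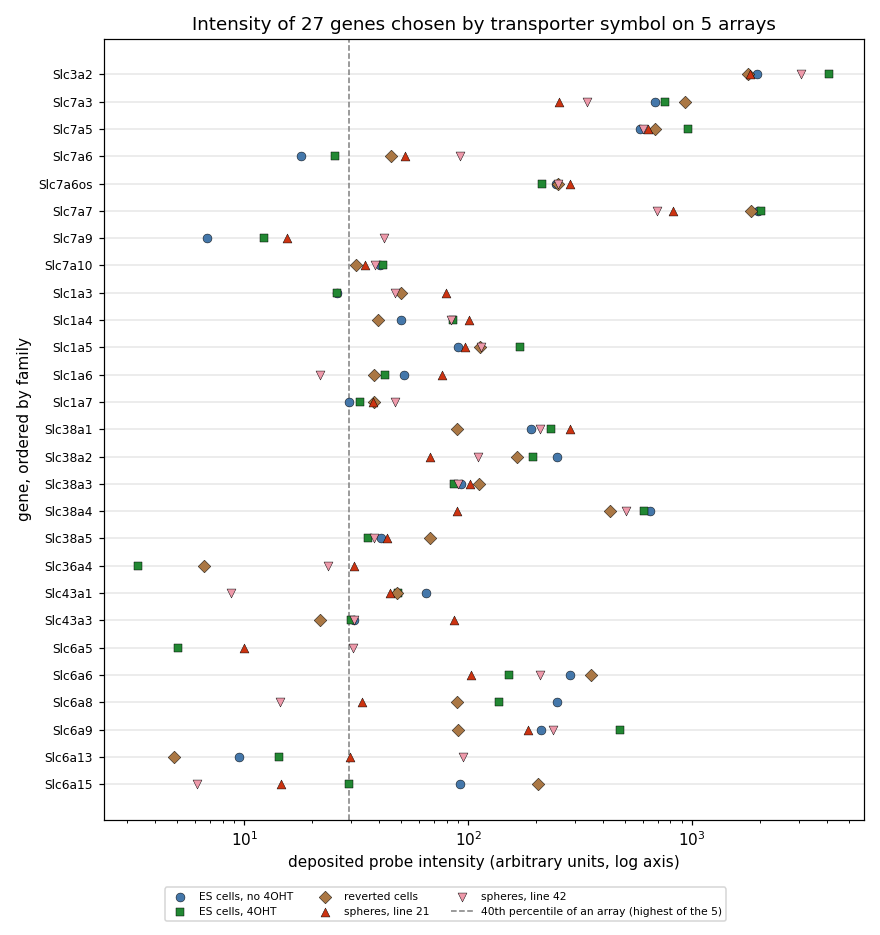
Deposited probe intensity (log axis, arbitrary units) of the 27 genes that reached the 40th percentile on at least 1 array, in order of family, with 1 point per array no point for an empty cell, and a dashed line at the highest of the arrays' 40th percentiles. Slc7a7 and Slc7a3 show the sphere arrays apart from the ES-type arrays on the low side, while Slc38a3 and Slc7a10 lie close together on all 5 arrays.

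Spheres were first set against the 3 ES-type arrays together, the only comparison with 3 residual degrees of freedom. The ES-type arrays are 3 different conditions with 1 array each, so SEs and p-values here include the differences between those conditions. The carriers of cationic amino acids Slc7a7 and Slc7a3 and the creatine carrier Slc6a8 had lower values in both sphere lines, while the light chain Slc7a6 and the GABA and taurine carrier Slc6a13 had higher ones. Of the 24 genes compared, limma called 1, Slc7a7, as lower, beside 2.44% of all 10589 genes tested (0.963% higher and 1.47% lower). The count over all genes, 258, became 0 without the untreated ES cell array, 32 without the 4OHT-treated one, 284 without reverted cells, 148 without line 21 spheres and 98 without line 42 spheres. Of these 24, 7 (29.2%) had an unadjusted p under 0.05 by limma, beside 18.9% of all genes. The median log2 difference was -0.07 over the 24 and 0.00 over all genes. The filter let Slc6a13 pass through the spheres alone and Slc6a15 through the ES-type arrays alone. It thus set some difference in these directions, though not its size.

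Slc7a7, the light chain that exports cationic amino acids from the cell in exchange for neutral ones, read 1967 in ES cells without 4OHT, 2037 with 4OHT and 1835 in reverted cells. In spheres it read 819 in line 21 and 696 in line 42. The ES-type arrays lay close together, and both sphere arrays lay below all of them. The fall was 2.57-fold (log2 difference -1.36, SE 0.23, limma adjusted p = 0.0454, n = 2 sphere arrays and n = 3 ES-type arrays of different conditions). It was lower in 2 of 2 sphere arrays. It lay near the threshold: leaving out any 1 of the 5 arrays gave log2 differences of -1.22 to -1.50 and limma adjusted p-values of 0.0638 (without reverted cells) to 0.197 (without ES cells without 4OHT). Less RNA per cell and fewer cells that express a gene cannot be told apart in such samples.

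Slc7a3, a carrier of cationic amino acids that works without a heavy chain, had 682 and 759 in untreated and 4OHT-treated ES cells and 927 in reverted cells. It read 255 and 339 in the spheres of lines 21 and 42. Both sphere arrays were below the lowest ES-type array. The difference was 2.65-fold and missed the threshold (log2 difference -1.41, SE 0.25, limma adjusted p = 0.0524). It passed with a pseudocount of 16 (limma adjusted p = 0.0441) and with a stricter filter on dim probes (0.0476).

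The other members of this group were mostly dim. Slc7a1, the widely expressed cationic carrier, was listed at 3.69 and 3.86 in ES cells and had no value on the other arrays. Slc7a4 read 10.7 to 24.6. Both probes lay under the 40th percentile on every array, so no level was compared.

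The heavy chain Slc3a2 and its main light chain for large neutral amino acids, Slc7a5, showed no such difference. Slc3a2 read 1946 in untreated and 4082 in 4OHT-treated ES cells, 1771 in reverted cells and 1813 and 3075 in spheres, and the groups overlapped. Its log2 difference was -0.03 (SE 0.43, limma adjusted p = 0.981). Slc7a5 read 585 and 961 in ES cells, 679 in reverted cells and 634 and 601 in spheres, all within 1.64-fold of each other, with a log2 difference of -0.23 (SE 0.27, limma adjusted p = 0.708). Slc7a10, a light chain for small neutral amino acids, read 31.6 to 41.6 over all 5 arrays (log2 difference -0.05, SE 0.24, limma adjusted p = 0.945).

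Slc7a6, another light chain that exchanges cationic for neutral amino acids, ran the other way from Slc7a7. It read 17.9 and 25.4 in ES cells, 45.0 in reverted cells and 52.3 and 91.6 in spheres, so the sphere arrays lay above the ES-type ones with reverted cells next to them. The difference of 2.47-fold did not pass (log2 difference 1.31, SE 0.43, limma adjusted p = 0.182). Slc7a6os, whose gene lies next to Slc7a6, read 212 to 250.5 on the ES-type arrays and 286 and 253 in spheres (a log2 difference of 0.19, limma adjusted p = 0.730).

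The remaining light chains were near the floor. Slc7a9, which pairs with Slc3a1 in kidney and gut, read 6.78 and 12.2 in ES cells, had no value in reverted cells and read 15.6 and 42.0 in spheres of lines 21 and 42. Its partner Slc3a1 read 12.6 to 19.1 over the 5 arrays. Slc7a11, the cystine and glutamate exchanger that feeds glutathione synthesis, read 15.1 and 11.3 in ES cells, 15.2 in reverted cells and 7.70 and 8.17 in spheres, all under the 40th percentile. Slc7a8 was listed in ES cells alone, at 20.1 and 6.60, and Slc7a12, Slc7a13 and Slc7a15 read at most 9.17.

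**Figure D2:**
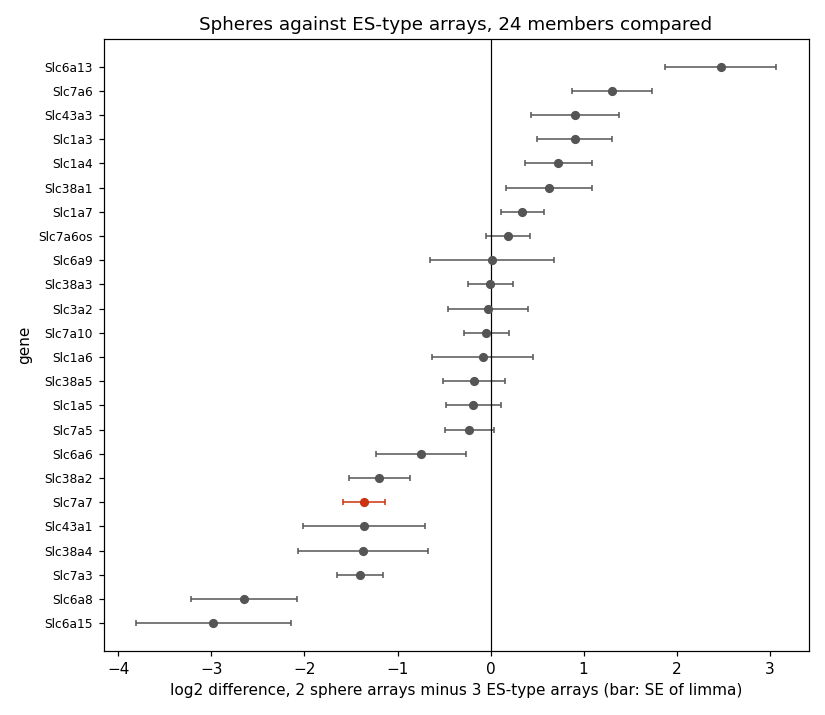
Log2 difference of 2 sphere arrays minus 3 ES-type arrays (horizontal axis) for the 24 genes compared, with bars of 1 SE from limma. The red point is Slc7a7 at -1.36, the gene past the adjusted p threshold, and the values run from -2.98 for Slc6a15 to 2.48 for Slc6a13.

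Among the sodium-coupled carriers of small neutral amino acids, Slc38a2 was low in spheres. This carrier, which cells make more of when amino acids run short, read 250.1 and 195 in untreated and 4OHT-treated ES cells, 165 in reverted cells and 67.8 and 111 in spheres. The groups did not overlap, but the difference did not pass (log2 difference -1.19, SE 0.33, limma adjusted p = 0.134). Slc38a1, its glutamine-carrying relative, read 189.85 and 234 in ES cells, 88.7 in reverted cells and 284 and 209 in spheres, so reverted cells were the low array. Its log2 difference was 0.63 (SE 0.46, limma adjusted p = 0.529).

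Slc38a4, an imprinted gene expressed from the paternal allele, split the sphere lines. It read 651 and 608 in ES cells, 431 in reverted cells, 89.4 in line 21 spheres and 506 in line 42 spheres. Line 42 lay among the ES-type arrays and line 21 far below them. The pooled log2 difference of -1.37 had an SE of 0.70 (limma adjusted p = 0.358). Slc38a3 read 86.5 to 112 and Slc38a5 35.8 to 67.7 over the 5 arrays, with limma adjusted p-values of 0.998 and 0.824.

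In the Slc1 family, the alanine, serine and cysteine carriers Slc1a4 and Slc1a5 are the members that take up neutral amino acids. Slc1a4 read 49.9 and 85.7 in untreated and 4OHT-treated ES cells, 39.6 in reverted cells and 101 and 83.7 in spheres. The cultures kept in 4OHT thus read higher than untreated ES cells and reverted cells. Slc1a5, the glutamine carrier, read 90.1 and 169.7 in ES cells, 112 in reverted cells and 97.0 and 114 in spheres, with ES cells with 4OHT the high array. Neither passed for spheres (log2 0.73 and -0.18, limma adjusted p = 0.344 and 0.795).

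The glutamate carriers of this family are best known from brain. Slc1a3, the carrier of astrocytes, read 25.87 and 25.95 in ES cells, 49.8 in reverted cells and 79.2 and 46.9 in spheres (a log2 difference of 0.90, limma adjusted p = 0.30). Slc1a6 read 37.97 to 51.9 on the ES-type arrays, 76.4 in line 21 spheres and 21.8 in line 42 spheres, so the sphere lines fell on either side of the others. Slc1a7 read 29.3 to 47.1, Slc1a1 at most 15.5, and Slc1a2 had values of 3.89 and 4.11 on 2 arrays.

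Of the Slc36 carriers, Slc36a4 alone reached the 40th percentile. It had no value in ES cells without 4OHT and read 3.35 in treated ones, 6.59 in reverted cells and 30.8 and 23.5 in spheres. Spheres were the high arrays, at levels close to the percentile. Slc36a1 and Slc36a2 had values on 2 arrays and 1 array, none above 4.62, and Slc36a3 read 10.4 to 24.2.

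In the Slc43 family, Slc43a1, a facilitator of large neutral amino acids, read 64.9 and 48.4 in ES cells, 48.0 in reverted cells, 44.8 in line 21 spheres and 8.70 in line 42 spheres. Line 21 spheres thus lay just under the ES-type arrays and line 42 spheres far below (log2 difference -1.36, SE 0.66, limma adjusted p = 0.336). Slc43a3 read 21.7 to 31.0 on the ES-type arrays, 86.2 in line 21 spheres and 30.9 in line 42 spheres. Slc43a2 had values on 3 arrays, at most 4.20.

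In the Slc6 family, Slc6a8, which takes up creatine, read 249.5 and 137 in untreated and 4OHT-treated ES cells, 88.9 in reverted cells and 33.6 and 14.5 in spheres of lines 21 and 42. Every sphere value lay below every ES-type value. The difference of 6.29-fold missed the threshold (log2 difference -2.65, SE 0.57, limma adjusted p = 0.0766). Slc6a15, a carrier of branched-chain amino acids known from brain, read 92.1 and 29.2 in ES cells, 204 in reverted cells and 14.6 and 6.13 in spheres (a log2 difference of -2.98, SE 0.84, limma adjusted p = 0.139). Reverted cells were the high array here and spheres the low ones.

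Slc6a13 had the highest log2 difference among the 24 genes compared on all arrays, from ES-type values that were all dim. It read 9.45 and 14.3 in ES cells, 4.84 in reverted cells and 29.6 and 95.1 in spheres of lines 21 and 42 (log2 difference 2.48, SE 0.60, limma adjusted p = 0.100). Slc6a6, the taurine carrier, read 286 and 151 in ES cells, 352 in reverted cells and 103 and 209 in spheres, and the groups overlapped (log2 difference -0.75, SE 0.48, limma adjusted p = 0.469). Slc6a9, a glycine carrier, read 211 and 477 in ES cells, 89.5 in reverted cells and 185 and 239 in spheres (a log2 difference of 0.02, SE 0.66, limma adjusted p = 0.994). Its spheres lay between the ES-type arrays. The glycine carrier Slc6a5 read 5.04 in ES cells with 4OHT, 9.98 in line 21 and 30.6 in line 42 spheres and had no value on the other arrays.

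The other 10 Slc6a members lay under the 40th percentile everywhere. They include the monoamine carriers Slc6a2 and Slc6a3, the GABA and betaine carriers Slc6a11 and Slc6a12, the brain carriers Slc6a7 and Slc6a17 and the epithelial carriers Slc6a14, Slc6a18, Slc6a19 and Slc6a20. The brightest of them was Slc6a12, with 16.4 in ES cells with 4OHT.

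Over the 24 genes compared on all arrays, the deposited values of spheres and ES-type arrays did not overlap for 9, with spheres above in 3 and below in 6. The same held for 36.7% of all genes, so this count is close to the background.

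Each ES-type array was then taken alone. Against ES cells without 4OHT, 8 of 25 genes compared were at least 2-fold apart in the same direction for each sphere line, 3 higher and 5 lower, where 10.5% of all 10283 genes were (4.51% higher and 6.01% lower). Of those 25, 6 had passed the filter through 1 side alone, among them Slc6a15 through the ES cells. For Slc6a15 the filter thus set some difference in that direction, though not its size. The lower genes were Slc6a8 (7.49-fold in line 21 and 17.4-fold in line 42), Slc6a15 (6.17-fold and 14.0-fold), Slc38a2 (3.78-fold and 2.41-fold), Slc7a7 (2.48-fold and 3.03-fold) and Slc7a3 (2.76-fold and 2.15-fold). The higher ones were Slc6a13 (2.83-fold and 8.58-fold), Slc7a6 (2.72-fold and 4.55-fold) and Slc7a9 (2.06-fold and 5.16-fold), which all had passed the filter through the spheres alone. With a pseudocount of 16 the count was 0 higher and 5 lower, so these 3 no longer passed. A fold against a value under the 40th percentile rests on dim signal and has no exact size. limma had 1 residual degree of freedom here, from the sphere arrays alone, so it could not decide on single genes. The median log2 difference was -0.03 over the 25 and 0.00 over all genes.

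Against 4OHT-treated ES cells, which were in 4OHT as spheres were, 6 of 27 were at least 2-fold apart in both lines, 3 higher and 3 lower, beside 12.8% of 10407 genes (5.98% higher and 6.86% lower). Slc6a8 (3.75-fold in line 21 and 8.70-fold in line 42), Slc7a3 (2.79-fold and 2.18-fold) and Slc7a7 (2.34-fold and 2.85-fold) were lower again. Slc36a4 (7.78-fold and 5.77-fold), Slc6a13 (2.12-fold and 6.43-fold) and Slc7a6 (2.15-fold and 3.59-fold) were higher, all 3 with values under the percentile in ES cells with 4OHT. Of the 27, 7 had passed the filter through 1 side alone, among them these 3 through the spheres. For these 3 the filter thus set some difference in that direction, though not its size. Here too limma took its spread from the sphere arrays alone and could not decide on single genes. The comparisons with single ES-type arrays share the sphere arrays, so they are not independent of each other. Taking line 21 spheres alone, 12 of 25 were at least 2-fold apart, beside 26.5% of all genes, and taking line 42 spheres alone, 9 of 26, beside 21.0%. With a pseudocount of 16, Slc6a13 and Slc7a6 no longer passed, and without centring Slc6a13 did not.

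Against reverted cells, 9 of 25 were at least 2-fold apart in both lines, 5 higher and 4 lower, beside 10.0% of 10328 genes (4.21% higher and 5.81% lower). Slc6a15 was lower by 12.7-fold in line 21 and 28.8-fold in line 42, Slc6a8 by 2.51-fold and 5.82-fold, Slc7a3 by 3.50-fold and 2.73-fold and Slc7a7 by 2.16-fold and 2.64-fold. Higher in spheres were Slc6a13 (5.43-fold and 16.4-fold), Slc36a4 (4.35-fold and 3.22-fold), Slc38a1 (3.29-fold and 2.34-fold), Slc1a4 (2.60-fold and 2.08-fold) and Slc6a9 (2.13-fold and 2.65-fold). Of the 25, 4 had passed the filter through 1 side alone, among them Slc6a13, Slc36a4 and Slc6a15 of these 9. For these the filter thus set some difference and its direction, though not its size. With a pseudocount of 16, Slc1a4, Slc36a4 and Slc6a9 no longer passed. As before, limma took its spread from the sphere arrays alone and could not decide on single genes. With line 21 spheres alone, 14 of 25 were at least 2-fold apart, beside 17.0% of all genes, and with line 42 alone 10 of 24, beside 22.5%. Slc7a7, Slc7a3 and Slc6a8 were thus at least 2-fold lower in both lines against each of the 3 ES-type arrays. Slc6a13 was higher against each, but its ES-type values all lay under the 40th percentile, so it entered each comparison through the spheres alone.

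The pair of ES cell arrays differs by 4OHT, which switches on the kinase, while the cells stay in ES cell culture. No array held 4OHT-treated cells without the fusion, so the kinase and 4OHT itself cannot be told apart. Each state has 1 array, so the differences have no replicate check. Of the 21 genes compared, 8 were higher with 4OHT after centring and 13 lower, with Slc7a7 and Slc7a10 of the 13 slightly higher without centring. Slc6a9 went from 211 to 477 (2.05-fold after centring), Slc3a2 from 1946 to 4082 (1.91-fold), Slc1a5 from 90.1 to 169.7 (1.70-fold), Slc1a4 from 49.9 to 85.7 (1.55-fold) and Slc7a5 from 585 to 961 (1.49-fold). Of the other 16 genes compared, Slc38a1 was the next, at 1.12-fold. Other carriers of neutral amino acids read lower with 4OHT, Slc43a1 (64.9 and 48.4), Slc38a2 (250.1 and 195) and, by 1.24-fold or less, Slc38a3, Slc38a4 and Slc38a5. The lowest against untreated ES cells were Slc6a15 (92.1 and 29.2, 3.39-fold), Slc6a6 (286 and 151, 2.07-fold) and Slc6a8 (249.5 and 137, 1.997-fold).

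At 2-fold or more, 1 of 21 was higher (Slc6a9) and 2 were lower (Slc6a15 and Slc6a6), beside 4.95% of 9852 genes (2.56% higher and 2.40% lower). The median log2 difference was -0.18 over the 21 and -0.03 over all genes. Without centring, Slc3a2 passed 2-fold (log2 1.07) and Slc6a6 did not (log2 -0.91), so the split became 2 higher and 1 lower. These arrays have no spread of their own, and limma could only borrow that of the sphere arrays, so it could not decide on single genes.

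Genes of the amino acid stress response read higher on the same array. Of 24 measured, 14 were at least 2-fold higher and 0 lower, beside 2.56% and 2.40% of all genes, with a median log2 difference of 1.11. The list was chosen with earlier results of these data known, and each state has 1 array. The share is thus no independent check. Atf4 itself read 3028 without and 6745 with 4OHT (2.03-fold), its partner Ddit3 read 297 and 3073, and Chac1, which degrades glutathione, 258 and 1660.4. The enzymes of serine, proline and cysteine synthesis Psph (2.72-fold), Aldh18a1 (2.01-fold) and Cth (3.62-fold) were among the 14, as was the folate enzyme Mthfd2 (6.88-fold). Asns, the asparagine synthetase, read 2687 and 4695, 1.59-fold after centring. Against ES cells with 4OHT, 11 of the 24 were at least 2-fold lower and 1 higher in both sphere lines (median log2 -1.16), beside 6.86% and 5.98% of all genes. Against ES cells without 4OHT, 2 of 23 were lower and 4 higher (median log2 -0.003), beside 6.01% and 4.51%. For reverted cells these were 2 and 4 of 23 (median log2 -0.06), beside 5.81% and 4.21%. The low median in spheres was thus seen against the 1 array of ES cells with 4OHT alone.

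**Figure D3:**
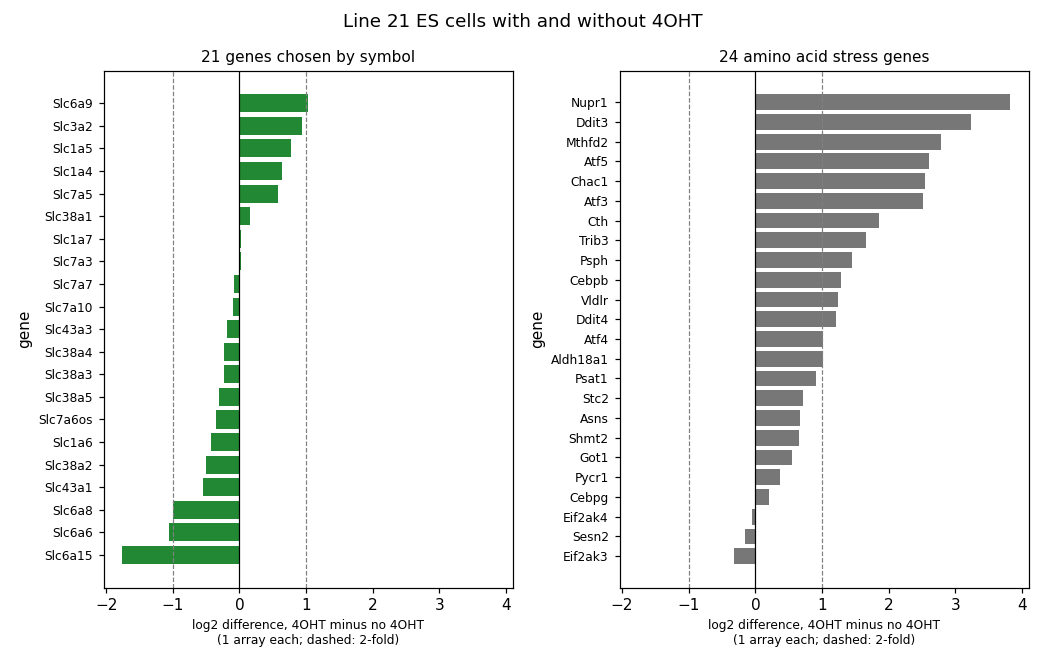
Log2 difference of the array of line 21 ES cells with 4OHT minus that without (horizontal axis, 1 array each, so no error bar), for the 21 genes compared (left) and 24 genes of the amino acid stress response (right), with dashed lines at 2-fold. On the left Slc6a9 passes the line on the high side and Slc6a15 and Slc6a6 on the low side, while 14 of 24 pass on the high side on the right.

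The core of the C/EBP-ATF response element, TGATGNAA, to which Atf4 binds with its partners, was searched on both strands in the RefSeq promoter windows of GRCm38.p6 (250 bases before to 50 after each start). Windows were given for 35 of the 51 genes, and 3 of these held the motif, 8.57%, against 4.51% of the 27025 genes with a window. The 3 are shown because their values on these arrays differ: Slc1a4 read higher with 4OHT, Slc7a7 did not, and Slc7a11 was dim on all arrays. They are Slc7a11 at chr3:50443614-50443729, Slc7a7 at chr14:54418028-54418135 and Slc1a4 at chr11:20332710-20332767, all on the minus strand. The stretches read 5′ to 3′ along the gene, with the motif or its reverse complement in capitals.
Slc7a11: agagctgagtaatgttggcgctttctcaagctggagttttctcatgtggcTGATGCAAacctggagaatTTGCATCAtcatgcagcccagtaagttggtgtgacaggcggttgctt
Slc7a7: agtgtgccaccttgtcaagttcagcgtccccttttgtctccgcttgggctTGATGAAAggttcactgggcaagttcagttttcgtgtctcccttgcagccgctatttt
Slc1a4: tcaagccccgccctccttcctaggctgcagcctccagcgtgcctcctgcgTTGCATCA
In Slc7a11 the motif began 66 bases before the start and stood again, inverted, at 47 bases. RefSeq gives Slc7a7 several starts, with 5 windows of which 2 held the motif. In the one shown it began 141 bases before the start, with another copy, not shown, that began 1 base before it. In Slc1a4 the inverted motif began 4 bases before the start. The windows of Slc3a2 and Slc6a9 held no match, which says only that these letters are not in those windows. For Slc1a5 and Slc7a5 no window was given, so they were not searched.

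Reverted cells were set against ES cells without 4OHT, 1 array each, for how far the transporter genes had returned to the starting values. Of 23 compared, 2 were at least 2-fold higher and 3 lower, beside 11.5% of 9939 genes (5.18% higher and 6.34% lower). The sphere-low carriers Slc7a7 (1835 and 1967) and Slc7a3 (927 and 682) were within 1.27-fold of ES cells. Slc6a8 read 88.9 against 249.5 (2.99-fold lower), Slc6a9 89.5 against 211 (2.51-fold lower) and Slc38a1 88.7 against 189.85 (2.28-fold lower). Slc6a15 read 204 against 92.1 (2.06-fold higher), but was under 2-fold with a pseudocount of 16 (log2 difference 0.95). Slc7a6 read 45.0 against 17.9 (2.27-fold higher), but it passed the filter through reverted cells alone and was under 2-fold with a pseudocount of 16 (log2 difference 0.77). Slc6a8 thus lay between ES cells and spheres, while Slc6a15 lay beyond ES cells on the side away from spheres. Slc6a9 and Slc38a1 lay below both ES cells without 4OHT and spheres. The median log2 difference was -0.20 over the 23 and 0.00 over all genes. Here too limma could only borrow the spread of the sphere arrays, so it could not decide on single genes.

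The sphere lines differed from each other in 8 of 26 genes compared by at least 2-fold, 4 higher and 4 lower in line 42, beside 15.7% of 9954 genes (7.87% higher and 7.81% lower). Line and culture cannot be told apart here. Slc38a4 was 5.40-fold higher in line 42 (89.4 in line 21 and 506 in line 42), Slc6a13 3.03-fold (29.6 and 95.1), Slc6a5 2.78-fold (9.98 and 30.6) and Slc7a9 2.50-fold (15.6 and 42.0). Lower in line 42 were Slc43a1 by 4.89-fold (44.8 and 8.70), Slc1a6 by 3.52-fold (76.4 and 21.8), Slc43a3 by 2.84-fold (86.2 and 30.9) and Slc6a8 by 2.32-fold (33.6 and 14.5). Of the 26, 6 passed the filter through 1 line alone, 5 of them among these 8. Slc38a4 was the one of the 8 that read well above the percentile in both lines. Of 7 OP9 markers compared between the lines, 3 were at least 2-fold lower in line 42 (Mgp, 328 and 10.1, Cxcl12, 109 and 8.21, and Col1a2, 101 and 42.0), Tagln was 2.10-fold higher, and Fabp4, Acta2 and Pdgfrb were within 1.34-fold. The part of these cells in the differences was not tested.

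**Figure D4:**
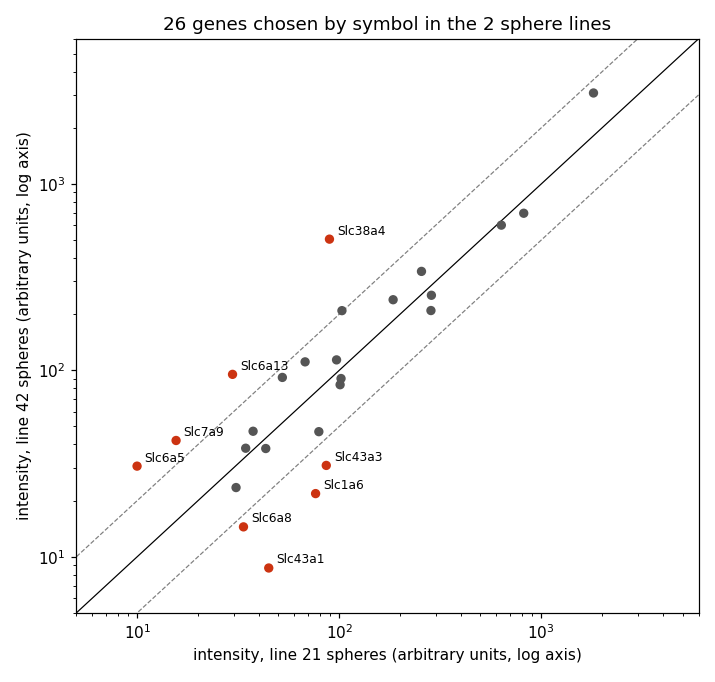
Deposited intensity of 26 genes in line 21 spheres (horizontal, log axis) and line 42 spheres (vertical, log axis), with the line of equal values and dashed lines at 2-fold. The 8 red, named points differed by at least 2-fold after centring, Slc6a6 touches the line but was under 2-fold then, and Slc38a4 stands farthest above the diagonal, at 89.4 and 506.

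Carriers of amino acids in other families, many of them in mitochondria, were listed too. Of 24 listed, 23 were on the array and 15 compared with all arrays. Between spheres and ES-type arrays limma called 0 of the 15, with 1 at an unadjusted p under 0.05, beside 2.44% and 18.9% of all genes. The mitochondrial serine carrier Sfxn1 read 1856 and 1883 in ES cells, 2166 in reverted cells and 2855 and 2492 in spheres. The aspartate and glutamate carriers Slc25a12 and Slc25a13 read 977 to 1760 and 960 to 1403 over the 5 arrays. With 4OHT in ES cells, 0 of 14 compared were 2-fold apart, beside 4.95% of all genes.

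Genes that sense amino acids for the growth kinase complex mTORC1 were also listed. Of 28 compared, limma called 0 for spheres, beside 2.44% of all genes, with 5 at an unadjusted p under 0.05, beside 18.9%. Nprl3, part of a complex that restrains mTORC1 when amino acids are short, read 88.1 and 128 in ES cells, 121 in reverted cells and 282 and 262 in spheres (a log2 difference of 1.29, limma adjusted p = 0.0595). The arginine sensor Castor1 read 670 and 599 in ES cells, 437 in reverted cells, 421 in line 21 spheres and 1519 in line 42 spheres. In the stress response list limma called Vldlr, a lipoprotein receptor, as higher in spheres (a log2 difference of 3.31, limma adjusted p = 0.0281) and no other of 24.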

How the data were processed

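Total RNA of 5 cultures was amplified to amino allyl antisense RNA and hybridised to one-colour arrays, per the labels' protocols. The deposited values are probe intensity values on a linear scale, read from the values themselves; background correction, normalization and the rule for empty cells (6.09% to 9.11% of 22871 probes) were not given in the sources used here. Empty cells were not filled in. Of the probes, 16264 had 1 gene symbol in the platform annotation, 6607 had none and 0 had several. Of 16087 symbols, 3787 were updated through a synonym from RefSeq's genes (GRCm38.p6) and 61 kept as given. For genes with several probes the one with the highest mean was used; each member has 1 probe, and Slc6a20 is Slc6a20b today.

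Values were taken to log2(value + 1), the pseudocount being 1, and centred on each array's median over 18884 probes listed on all arrays, a shift of -0.08 to 0.06. Spheres (n = 2) against ES-type arrays (n = 3) used limma 3.58.1 in R 4.3.3 over all genes, with Benjamini-Hochberg adjustment and a threshold of 0.05. The residual spread of that fit also held the differences between the ES-type conditions and between the sphere lines. Spheres against single ES-type arrays used a mean for each of the 4 groups, which assumes that a lone array varies as the sphere arrays do. Single arrays were compared by fold. The code was tested on simulated data. Any member could be named: values on all arrays are given for those past the call or 2-fold rules and for bright members, others by range. The members and lists were chosen with earlier results of these data known. Alternatives were another pseudocount, other filters, quantile normalization, no centring, the mean of probes, current symbols and leaving out arrays. The number of arrays limits the precision.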

Additional observations from a re-analysis of the deposited data

How the results depend on the processing

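No paired analysis was possible because the groups share only line 21, and 3 of the 4 groups have 1 array. For spheres against ES-type arrays, limma called 2 genes with a pseudocount of 16 and with the stricter filter, 0 with quantile normalization (Slc7a7 at an adjusted p of 0.0503, 7 genes at an unadjusted p under 0.05) and 0 to 0 when any 1 array was left out (7 to 9 unadjusted; a sphere array left alone is assumed to vary as the ES-type arrays do). With a pseudocount of 16, genes at least 2-fold apart were 5 for each sphere line against untreated ES cells (0 higher and 5 lower), 3 between reverted cells and ES cells and 5 between the sphere lines; the stricter filter left 2 between the sphere lines. Leaving out a sphere array left 1 line to decide. It gave 10 and 11 genes against ES cells without 4OHT, beside 18.8% and 22.6% of all genes. Against ES cells with 4OHT it gave 9 and 12, beside 21% and 26.5%, and against reverted cells 10 and 14, beside 22.5% and 17%. limma could not take the place of the fold rule in the 5 comparisons with a single ES-type array, since its spread there came from the sphere arrays alone. Without centring the median of all genes moved from -0.03 to 0.11 for ES cells with against without 4OHT. Of 1404 single-gene values under an alternative, 0 reversed, 22 lost and 28 gained a call or the 2-fold rule. Dim probes limit what can be compared, since 24 of the 51 genes lay under the 40th percentile on every array.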

Other observations

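A further 5 probes carry older clone names on the platform and today belong to these families, so they were not among the 51. Slc38a9, the lysosomal arginine sensor that signals to mTORC1, read 126 in untreated and 165 in 4OHT-treated ES cells, 154 in reverted cells and 141 and 78.0 in spheres of lines 21 and 42. Slc6a20a, a proline carrier, read 34.4 and 49.9 in ES cells, 23.6 in reverted cells and 19.5 and 25.2 in spheres. Slc38a8 read 14.1 and 30.8 in ES cells and 5.19 to 7.16 on the other arrays, with ES cells with 4OHT the one array above the 40th percentile. Slc38a10 read 37.0 to 65.3 and Slc38a11 17.0 to 35.6 over the 5 arrays. With these genes added, 7 rather than 6 were at least 2-fold apart in both sphere lines against ES cells with 4OHT. The share of all genes was 12.8%. The gene gained was Slc38a8, lower in spheres, which passed the filter through the ES cells with 4OHT alone. The other 6 counts were as without the added genes.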
